A study of Mus musculus with 6 samples.

Results

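Ribosome biogenesis and RNA polymerase I genes encode the machinery that transcribes ribosomal RNA, modifies and cuts it, and assembles it with proteins into ribosomal subunits. They were followed here in subcutaneous mouse tumours that carry a doxycycline-inducible hairpin against St18. The genes were taken by symbol from a given set of 44, and 43 of these had a row among the 21671 named genes of the count table. Noc2l was not analysed here, except in the search for short sequences near start sites. All 43 passed the filter on low counts that left 14809 genes for testing, and the lowest count of a member in any library was 339.

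The treated group was 3 tumours taken 4 h after doxycycline and labelled ST18 knockdown, and the other group was 3 untreated tumours labelled wild type. All grew from transformed hepatoblasts, the fetal progenitors of hepatocytes and bile duct cells, which had been injected into CD1 nude mice, a strain without a thymus. All of the injected cells carried the TtRMPVIR shST18 vector, in which doxycycline starts transcription of a short hairpin RNA against St18. Doxycycline was given by gavage at 200 mg/ml in 300 µl of water. RNA was depleted of ribosomal RNA before sequencing, so the ribosomal RNA itself was not measured. No animals with doxycycline but without the hairpin were analysed, and drug, gavage and hairpin cannot be told apart. Nothing states that each library came from its own animal, so the p-values measure the spread between these libraries, which may be technical.

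Ribosomal RNA is made in the nucleolus by RNA polymerase I from a long precursor. Small nucleolar particles (snoRNPs) guide its modification, and separate sets of assembly factors build the small and the large subunit. In growing cells this programme takes up much of the nucleotide and energy supply. The transcription factor MYC is known to drive many of its genes, together with the genes for pyrimidine and polyamine synthesis that serve growth.

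Several facts of the whole series bear on the values. The target gene St18 showed no decrease after doxycycline, with 34, 12 and 61 counts in doxycycline replicates 1, 2 and 3 against 12, 23 and 19 in untreated replicates 1, 2 and 3 (log2 fold change 1.03, 95% interval -0.22 to 2.29, edgeR adjusted p = 0.298). Every direction given here is therefore between libraries labelled ST18 knockdown and untreated libraries, whose labels the target did not bear out. Levels are given as CPM, counts scaled to the library total. Library totals were 12090309 to 15899374 counts after doxycycline and 13148155 to 16169043 untreated. Of the hepatoblast and hepatocyte markers, Krt8, Krt18 and Sox9 were detected at 21.3 to 89.9 CPM in every library, while Alb reached at most 0.151 CPM and Afp at most 1.35 CPM. Of 6 marker lists, skeletal muscle had the largest median log2 fold change, 3.29. Of 20 such markers, 12 were higher and 0 lower after doxycycline, and their summed level was 471 to 3180 CPM after doxycycline and 109 to 257 CPM untreated. Of 15 fibroblast markers 5 were higher (summed level 2100 to 2400 CPM after doxycycline and 1700 to 1730 CPM untreated), and of 14 macrophage markers 3 were higher (599 to 866 CPM and 501 to 596 CPM). Of 12 endothelial markers 2 were higher (652 to 753 CPM and 589 to 631 CPM), and of 8 tested hepatoblast and hepatocyte markers 0 passed in edgeR, with 1 higher at an unadjusted p under 0.05. Of 10 neutrophil markers 1 was lower, with a summed level of 91.9 to 159 CPM after doxycycline and 208 to 286 CPM untreated. No marker of these lists was at 0 in all 6 libraries. In bulk tissue, fewer cells of a type and less RNA per cell cannot be told apart. The part of these cell types in the results below was not tested.

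At an edgeR adjusted p under 0.05 over all genes, 9 of 43 ribosome biogenesis genes were lower after doxycycline and 0 higher: Polr1b, Nat10, Rrp12, Heatr1, Noc4l, Bop1, Rrp1b, Cad and Srm. That is 20.9% of the members lower, against a background of 2.18% of all tested genes lower and 2.84% higher. The members were chosen with earlier results of these data known, so this contrast is a description and no independent support. Among the 8237 tested genes within the members' range of mean level, 32.8 to 688 CPM, 3.17% were lower and 2.26% higher. The log2 fold change was below 0 for 40 of 43 members (93%), against 48.9% of all tested genes, and its median was -0.21, against 0.01 for all tested genes. Among the genes in the members' range of mean level, 55.1% were below 0 and the median was -0.03. The members together held 6938, 6692 and 6511 CPM in doxycycline replicates 1, 2 and 3, against 7896, 7903 and 8029 CPM in untreated replicates 1, 2 and 3. Every doxycycline library thus had a smaller summed level than every untreated library.

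The number of members past the threshold depended on which libraries were in the fit. With edgeR, the tool run for these fits, it was 0 without untreated replicate 1, 0 without untreated replicate 2 and 0 without untreated replicate 3. At an unadjusted p under 0.05, 17, 20 and 17 members were lower there. So were 1071 of 15261, 1265 of 15089 and 961 of 15146 genes over the whole table. On all libraries, 22 of 43 members and 10.8% of all tested genes were lower at an unadjusted p under 0.05. The number past the adjusted threshold was 10, 16 and 4 without doxycycline replicates 1, 2 and 3. Calls over the whole table varied too, with 12 to 866 genes lower across the 6 fits with a library left out. On all libraries DESeq2 called 14 and limma-voom 10, and each of these sets held all 9. DESeq2 added Polr1e, Tcof1, Rrp9, Bysl and Mdn1, and limma-voom added Tcof1. The median log2 fold change stayed between -0.18 and -0.23 in the 6 fits with a library left out.

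**Figure D1:**
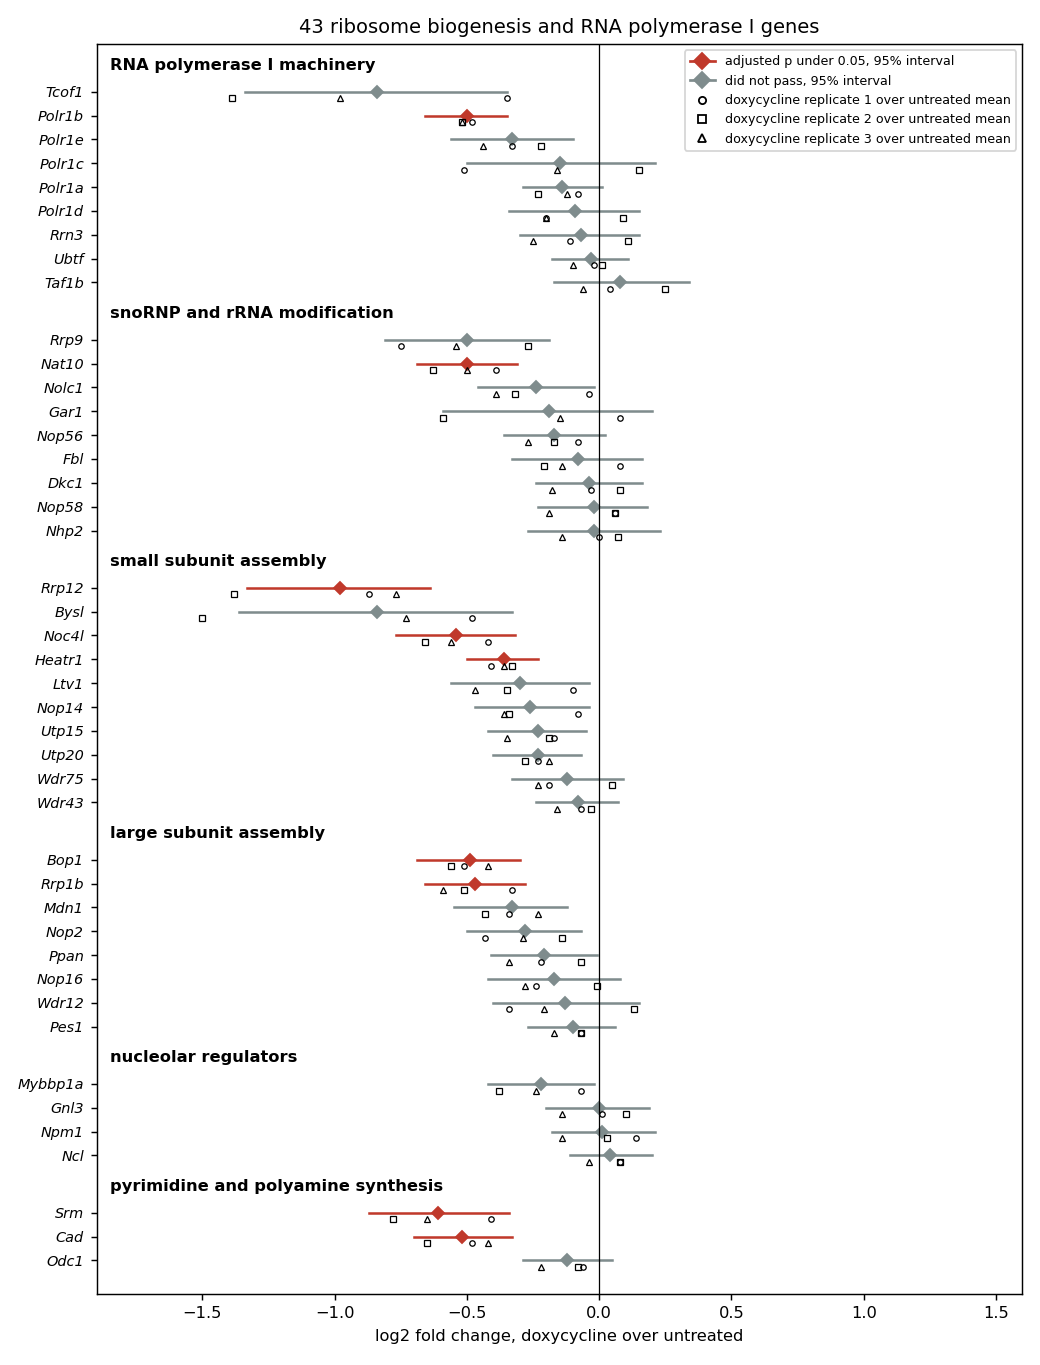
Log2 fold change (doxycycline over untreated, horizontal axis) of the 43 members by role, with 95% intervals from edgeR; small open symbols are the 3 doxycycline libraries, each over the untreated mean. The 9 red members passed the threshold, and 40 of the 43 estimates lie left of 0.

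Without regard to a threshold, 23 of 43 members (53.5%) had groups that did not overlap with doxycycline on the lower side, against 14.4% of all tested genes, and 0 members had them on the higher side, against 15.2%. Among genes in the members' range of mean level, 17.9% did so on the lower side.

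The RNA polymerase I machinery had 1 of 9 members past the threshold. Polr1b, the second-largest subunit of the enzyme, had 127, 123 and 124 CPM in doxycycline replicates 1, 2 and 3, against 176, 171 and 184 CPM in untreated replicates 1, 2 and 3. Means were 125 ± 2.09 CPM after doxycycline and 177 ± 6.44 CPM untreated (SD, n = 3 each), far apart relative to the spread. This gave a log2 fold change of -0.50 (SE 0.07, 95% interval -0.66 to -0.35, edgeR adjusted p = 0.0126), the smallest adjusted p among the members.

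The other 8 members did not pass in edgeR. Polr1a, the largest subunit, was at -0.14 (95% interval -0.29 to 0.01), and Polr1e, a subunit particular to RNA polymerase I, at -0.33 (-0.56 to -0.10, edgeR adjusted p = 0.102, DESeq2 adjusted p = 0.0499). The subunits Polr1c and Polr1d, which RNA polymerase III shares, were at -0.15 and -0.09. Ubtf, the architectural factor that coats active ribosomal DNA, was at -0.03 (95% interval -0.18 to 0.11). Rrn3, which links the polymerase to its promoter, was at -0.07 (-0.30 to 0.15). Taf1b, of the promoter selectivity factor, had 58.2, 67.6 and 54.5 CPM in doxycycline replicates 1, 2 and 3, against 58.4, 55.1 and 56.6 CPM in untreated replicates 1, 2 and 3. Its groups overlapped, and its log2 fold change of 0.08 was the most positive of the 43. Tcof1, whose product treacle is a nucleolar scaffold for RNA polymerase I, had 218, 106 and 141 CPM after doxycycline, against 284, 279 and 270 CPM untreated. All 3 doxycycline values were lower, but they differed from each other by more than the untreated ones, and the log2 fold change of -0.84 (-1.34 to -0.35) did not pass in edgeR (adjusted p = 0.0622). It passed in DESeq2, in limma-voom, without doxycycline replicate 1 or 2, and with the replicate block and GC offsets together.

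The 250 bases before the annotated start site are shown for 3 genes that serve RNA polymerase I transcription: Polr1b and Heatr1, which were lower, and Rrn3, which did not pass. Sequences are RefSeq's on GRCm38.p6, another build than the mm9 used for counting, and capitals mark the E-box CACGTG, the GC box GGGCGG and the ETS core CCGGAAG on either strand, which do not overlap there.
Polr1b, chr2:129100746-129100995, plus strand: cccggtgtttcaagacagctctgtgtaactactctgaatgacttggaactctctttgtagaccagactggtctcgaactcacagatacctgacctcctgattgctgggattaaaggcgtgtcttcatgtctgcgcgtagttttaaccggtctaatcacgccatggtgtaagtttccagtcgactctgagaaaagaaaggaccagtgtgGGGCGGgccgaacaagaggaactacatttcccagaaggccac
Heatr1, chr13:12395125-12395374, plus strand: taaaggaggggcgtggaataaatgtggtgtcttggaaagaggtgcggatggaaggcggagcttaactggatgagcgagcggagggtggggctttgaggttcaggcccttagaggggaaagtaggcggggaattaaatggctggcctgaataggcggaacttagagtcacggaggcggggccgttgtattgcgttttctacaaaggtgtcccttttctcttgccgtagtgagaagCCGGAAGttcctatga
Rrn3, chr16:13780449-13780698, plus strand: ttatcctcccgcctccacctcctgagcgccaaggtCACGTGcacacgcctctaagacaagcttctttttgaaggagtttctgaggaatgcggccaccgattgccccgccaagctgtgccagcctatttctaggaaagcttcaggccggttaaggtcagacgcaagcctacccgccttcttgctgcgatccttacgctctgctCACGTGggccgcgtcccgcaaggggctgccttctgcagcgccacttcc
Rrn3 held 2 copies of CACGTG, the E-box to which MYC with MAX and other factors bind, Polr1b held 1 GGGCGG (GC box), and Heatr1 held 1 CCGGAAG, the core recognised by ETS factors. The printed windows of the 2 genes that were lower held no CACGTG. With 3 picked genes this contrast carries no weight, and whether E-boxes go with the change was not tested.

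Windows from 250 bases before to 50 after the start were found for 38 of the 44 symbols, Noc2l among them. CACGTG, which reads the same on both strands, was in the windows of 8 of these 38 genes (21.1%), against 8.09% of 27025 genes with a window. These 8 were Ltv1, Mdn1, Mybbp1a, Nop2, Pes1, Rrn3, Utp20 and Wdr43. None of the 6 members past the threshold that had a window held it, too few genes to set against 21.1%. Bop1, Rrp12 and Srm passed the threshold and had no window. GGGCGG or its reverse complement was in 73.7% of these 38 genes and 38.2% of all genes, and CCGGAAG or its reverse complement in 31.6% and 9.93%. The element TGATGNAAT, a core of ATF4 target sites, was in 0 of these 38 genes and 1.08% of all genes. These matches describe letters in short windows and no binding.

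Among snoRNP and rRNA modification genes, 1 of 9 members passed. Nat10, the acetyltransferase that marks cytidines of the small subunit's RNA, had 123, 104 and 114 CPM in doxycycline replicates 1, 2 and 3, against 157, 160 and 167 CPM in untreated replicates 1, 2 and 3. Its groups did not overlap (log2 fold change -0.50, SE 0.08, 95% interval -0.69 to -0.31, edgeR adjusted p = 0.0208). Rrp9, a protein of the snoRNP that guides the first cuts of the precursor, had 50.1, 69.9 and 57.8 CPM after doxycycline, against 86.3, 76.1 and 89.9 CPM untreated. Its mean difference was as large (-0.50) but less even between libraries, and it did not pass in edgeR (95% interval -0.81 to -0.19, adjusted p = 0.0711) but did in DESeq2 (adjusted p = 0.0136).

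The core snoRNP proteins did not pass. Of the box C/D proteins, the methyltransferase gene Fbl was at -0.08, Nop56 at -0.17 and Nop58 at -0.02, and all 3 had overlapping groups. Among the box H/ACA proteins, the pseudouridine synthase gene Dkc1 was at -0.04, Gar1 at -0.19 and Nhp2 at -0.02. Nhp2 had 55.7, 58.5 and 50.7 CPM after doxycycline, against 59.5, 51.6 and 56.2 CPM untreated, and the 2 ranges lay across each other (95% interval -0.27 to 0.23). Nolc1, a chaperone of both particle classes, was at -0.24 (-0.46 to -0.02, adjusted p = 0.172).

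Small subunit assembly genes were lower in all 10 cases by sign, and 3 of 10 passed. Rrp12, known from yeast as an export and maturation factor of pre-ribosomes, had 58.4, 41.0 and 62.5 CPM in doxycycline replicates 1, 2 and 3, against 101, 109 and 109 CPM in untreated replicates 1, 2 and 3. Every doxycycline library was far under every untreated one, and the mean fell by 49.3%. Its log2 fold change of -0.98 (SE 0.15, 95% interval -1.33 to -0.64, edgeR adjusted p = 0.0164) was the most negative of the 43. Noc4l, of a pair of nucleolar proteins that act on the small subunit precursor in yeast, had 64.7, 54.7 and 59.0 CPM after doxycycline, against 90.6, 82.1 and 87.2 CPM untreated. The 2 groups lay apart (-0.54, 95% interval -0.77 to -0.32, adjusted p = 0.0246). Heatr1, a large scaffold needed for pre-rRNA transcription and early processing, had 250, 264 and 259 CPM after doxycycline, against 325, 334 and 336 CPM untreated. Its change was smaller (-0.36, 95% interval -0.50 to -0.23, adjusted p = 0.02) but its libraries were close to each other within each group.

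Bysl, an assembly factor that stays on the small subunit precursor until late, had 52.6, 25.8 and 44.0 CPM after doxycycline, against 76.9, 68.2 and 74.2 CPM untreated. Doxycycline replicate 2 was the lowest by a wide margin, and the mean change of -0.84 (95% interval -1.36 to -0.33) did not pass in edgeR (adjusted p = 0.069) but did in DESeq2 (adjusted p = 0.00435). In the reference annotation 9.37% of Bysl's exonic bases lie on bases of Ccnd3 on the opposite strand, and whether the counting used strand is not given in the sources used here. The other members, Ltv1, Nop14, Utp15, Utp20, Wdr75 and Wdr43, ranged from -0.30 to -0.08. Of these, Ltv1, Nop14, Utp15 and Utp20 had groups that did not overlap, though none passed over all genes (adjusted p 0.104 to 0.158). Wdr43, a subunit of the early small subunit processome, was nearest to 0, with 220, 226 and 206 CPM after doxycycline, against 235, 221 and 235 CPM untreated.

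**Figure D2:**
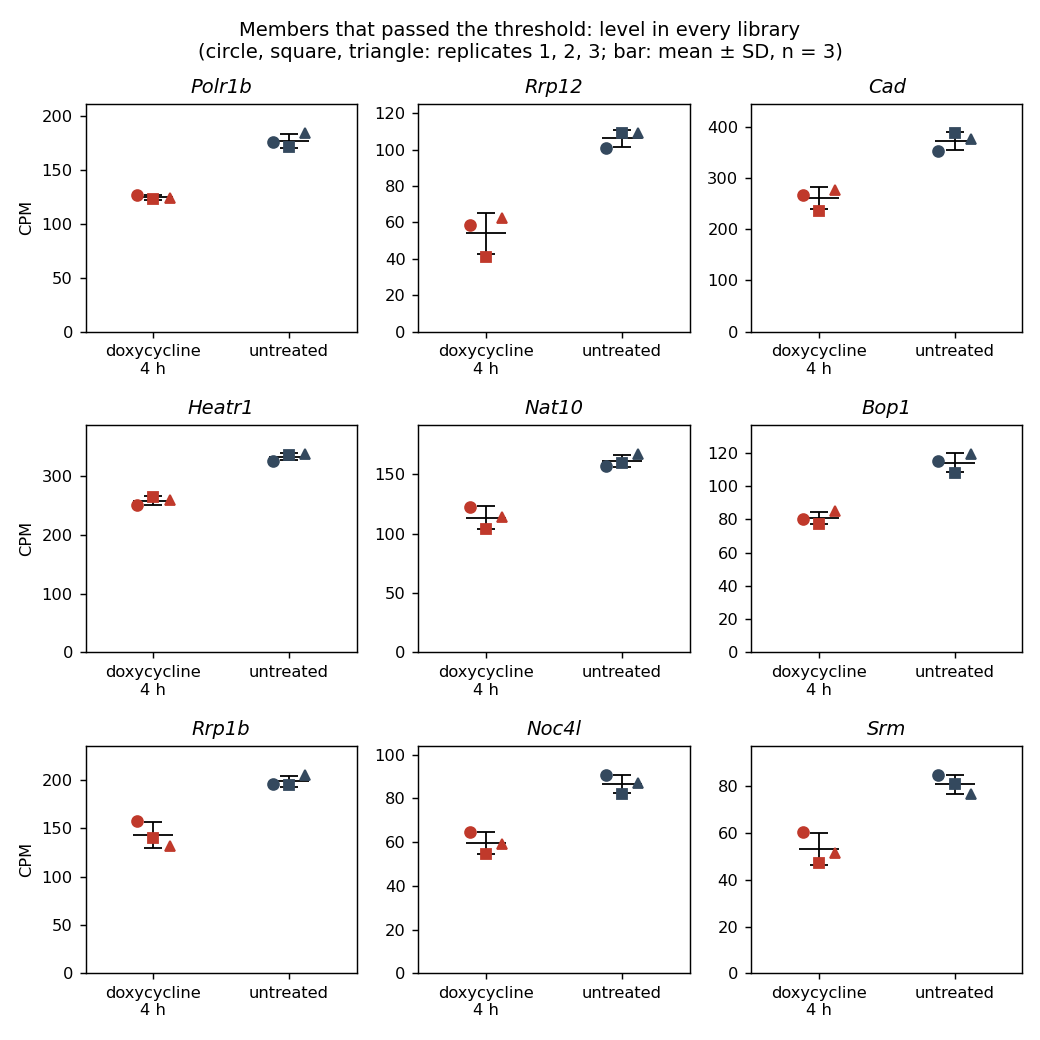
Level in CPM (vertical axes from 0) of the 9 members past the threshold in every library, doxycycline at the left and untreated at the right; bars are means with SD, n = 3. In all 9 panels the 3 doxycycline libraries lie under the 3 untreated ones, by the widest relative gap for Rrp12.

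Of the large subunit assembly genes, 2 of 8 passed. Bop1 is part of the PeBoW complex with Pes1 and Wdr12, which is needed for cutting the precursor of the large subunit's RNA. Bop1 had 80.2, 77.4 and 84.9 CPM in doxycycline replicates 1, 2 and 3, against 115, 108 and 119 CPM in untreated replicates 1, 2 and 3. The groups did not overlap (log2 fold change -0.49, SE 0.08, 95% interval -0.69 to -0.30, edgeR adjusted p = 0.0212). With offsets for GC content and length Bop1 was at -0.37 (adjusted p = 0.0397), and with the replicate block as well its call was lost at the same size (-0.37, adjusted p = 0.077). Its partners did not pass in edgeR on all libraries: Pes1 was at -0.10 (-0.27 to 0.06) and Wdr12 at -0.13 (-0.40 to 0.15). Pes1 had 152, 152 and 142 CPM after doxycycline, against 166, 154 and 159 CPM untreated, a narrow gap. Whether Bop1 differed from its partners in its change was not tested.

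Rrp1b, a nucleolar protein that binds large subunit precursors, had 158, 140 and 132 CPM after doxycycline, against 196, 195 and 205 CPM untreated (-0.47, 95% interval -0.66 to -0.28, adjusted p = 0.023). Every doxycycline library was again under every untreated one. The remaining members of the group were at -0.33 (Mdn1, the giant ATPase midasin that strips assembly factors from the particle), -0.28 (Nop2, a methyltransferase of ribosomal RNA), -0.21 (Ppan) and -0.17 (Nop16), with adjusted p from 0.0804 to 0.377.

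None of the 4 nucleolar regulators passed in edgeR, with 1 lower at an unadjusted p under 0.05, and 0 passed in DESeq2. Ncl, which encodes nucleolin, had 491, 491 and 452 CPM in doxycycline replicates 1, 2 and 3, against 464, 482 and 446 CPM in untreated replicates 1, 2 and 3. The ranges lay across each other, and the log2 fold change was 0.04 (95% interval -0.11 to 0.20). Npm1, which encodes nucleophosmin, was at 0.01 (-0.18 to 0.21), and Gnl3, which encodes nucleostemin, at 0.00 (-0.20 to 0.19). Mybbp1a, a nucleolar protein that binds Myb, had 322, 258 and 286 CPM after doxycycline, against 346, 342 and 324 CPM untreated, without overlap but with a wide spread after doxycycline (-0.22, adjusted p = 0.166). With offsets for GC content and length, Ncl was at -0.21 and Npm1 at -0.19, neither past the threshold.

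Of the 3 genes for precursors of growth, Cad and Srm passed and Odc1 did not. Cad, whose product carries out the first steps of pyrimidine synthesis, had 267, 236 and 277 CPM in doxycycline replicates 1, 2 and 3, against 353, 387 and 376 CPM in untreated replicates 1, 2 and 3. The mean fell by 30.0% (log2 fold change -0.52, SE 0.08, 95% interval -0.70 to -0.33, edgeR adjusted p = 0.0164). Srm, spermidine synthase, had 60.5, 47.0 and 51.5 CPM after doxycycline, against 84.6, 80.9 and 76.6 CPM untreated (-0.61, 95% interval -0.87 to -0.34, adjusted p = 0.0274). With offsets for GC content and length Srm was at -0.46 and its call was lost (adjusted p = 0.0712). Odc1, ornithine decarboxylase, which acts upstream of Srm in the polyamine pathway, had 200, 198 and 179 CPM after doxycycline, against 219, 197 and 210 CPM untreated. These ranges overlapped (-0.12, 95% interval -0.29 to 0.05).

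The members did not move as 1 block among the doxycycline libraries. Doxycycline replicate 3 was the lowest of its group for 23 members, replicate 2 for 15 and replicate 1 for 5. The log2 level in replicate 2 minus the mean of replicates 1 and 3 ran from -0.90 to 0.49, with a median of 0.05. Tcof1, Rrp12 and Bysl were lowest in replicate 2, whereas Polr1c, Rrp9 and Wdr12 were highest there. Without replicate 2, Polr1e, Tcof1, Rrp9, Bysl, Wdr12, Nop2 and Ppan passed as well. Replicate 2 also had the highest summed level of skeletal muscle markers, at 3180 CPM against 1600 and 471 CPM in replicates 1 and 3.

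Per kilobase of the longest coding transcript, Npm1 was the most abundant member, with means of 104 CPM per kb after doxycycline and 103 CPM per kb untreated. Nop56 (87.3 and 98.2) and Odc1 (87.1 and 94.6) came next, and Bysl (10.6 after doxycycline and 19.0 untreated) was among the least abundant. This order depends on the length used, 1633 bases for Npm1 and 3854 for Bysl. Ncl had 478 CPM after doxycycline and 464 CPM untreated, but was divided by 8202 bases. Which transcripts were expressed was not tested, and the counts per base given next share this limit. Untreated replicate 2 held 1.23 times the counts of untreated replicate 1, and the median ratio was 1.10 for the 9 members above 1 count per base and 1.16 for the other members. None of the 9 members that passed was above 1 count per base, and Npm1, Nop56, Odc1, Ppan, Polr1d, Mybbp1a, Gnl3, Fbl and Nop2 were. The Spearman correlation of log2 fold change with counts per base was 0.28 across the members but -0.33 across all tested genes. Whether counts level off in dense genes was not tested. Npm1 has processed pseudogenes, so its counts are uncertain.

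GC content moved with the result. The median GC content of the transcript was 55.3% for the 9 members that passed, 50.6% for the other 34 and 50.2% for all tested genes. The Spearman correlation of log2 fold change with GC content was -0.58 across the 43 members and -0.34 across all tested genes, a description across genes that share libraries and base composition. With offsets for GC content and length, all 43 members had a log2 fold change below 0 with a median of -0.27, against -0.07 for all tested genes. At an unadjusted p under 0.05, 2229 of 14701 genes were lower with these offsets and 1596 of 14809 without them. The offsets rest on the longest coding transcript, whichever was expressed. With the offsets 11 members were lower at the adjusted threshold, 8 of them among the 9 above. Srm was lost, and Utp20, Bysl and Mdn1 were gained.

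**Figure D3:**
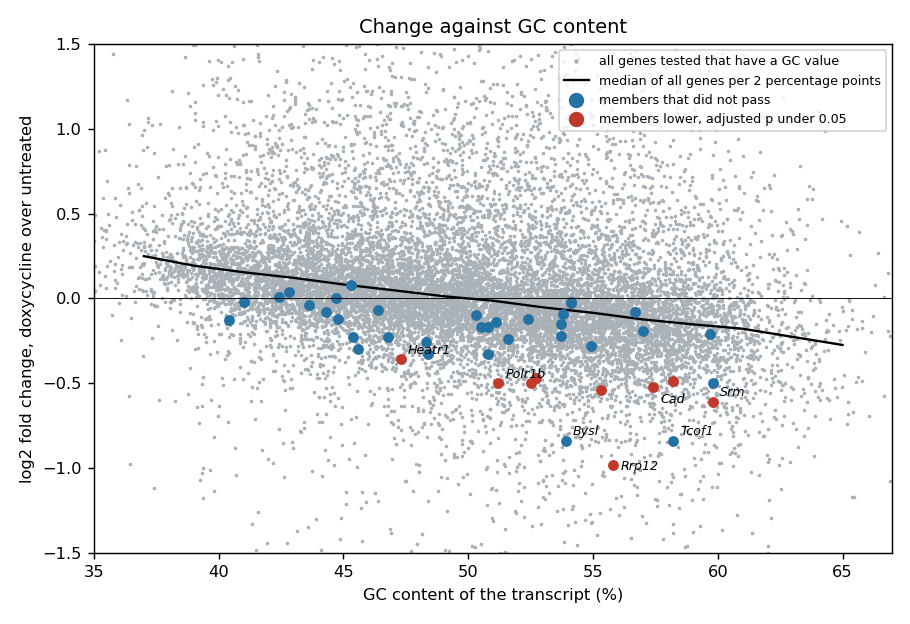
Log2 fold change (doxycycline over untreated) against GC content of the longest coding transcript, for all tested genes with a GC value (grey) and for the members; the vertical axis is cropped at -1.5 and 1.5, and the black line is the median in bins of GC content. Members past the threshold (red) lie at 47.3% to 59.8% GC.

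The rest of the pathway, in lists that share no gene with the members, is given by 5 lists. Of 139 other ribosome biogenesis genes, 11 (7.91%) were lower and 0 higher, against 2.18% and 2.84% of all tested genes. These lists, too, were chosen with earlier results of these data known. The log2 fold change was below 0 for 122 of 139 (87.8%), against 48.9% of all tested genes, with a median of -0.14. The groups of 51 (36.7%) did not overlap on the lower side, against 14.4% of all tested genes. Like the members' count, the count of 11 past the threshold fell to 0 without untreated replicates 1, 2 or 3 and to 1 without doxycycline replicate 3. It was 29 without doxycycline replicate 2. At an unadjusted p under 0.05, 46 of the 139 were lower on all libraries, against 10.8% of all tested genes, and DESeq2 called 22.

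Among 12 other RNA polymerase I genes, 2 were lower: Cd3eap, a subunit of the enzyme (-0.53, edgeR adjusted p = 0.0268), and Taf1c, of the same promoter factor as Taf1b (-0.67, adjusted p = 0.0495). The shared subunits Polr2f (-0.18) and Polr2h (-0.18) did not pass. Of 44 other small subunit assembly genes 5 were lower. These were Dhx33 (-0.38), Tbl3 (-0.48), Rcl1 (-0.43), Pdcd11 (-0.38) and Nol10 (-0.38), with adjusted p from 0.0234 to 0.0467. Nol10 falls outside the naming rule and is named after its value was seen, to complete the count. Of 48 other large subunit assembly genes 4 were lower: Urb1 (-0.73, adjusted p = 0.0154), Nol9 (-0.41), Rrs1 (-0.60) and Noc3l (-0.33). Urb1 averaged 101 ± 9.90 CPM after doxycycline and 168 ± 18.1 CPM untreated (SD, n = 3 each).

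None of 19 other snoRNP and modification genes passed in edgeR (4 lower at an unadjusted p under 0.05, 1 lower in DESeq2), with Ruvbl2 at -0.30, Wbscr22 at -0.43, Nsun5 at -0.50 and Pop1 at -0.23. None of 16 exosome genes passed in edgeR either, where 1 was lower and 1 higher at an unadjusted p under 0.05, and DESeq2 called 0. Exosc1 was at -0.31, C1d at 0.33, Exosc2 at -0.25 and Exosc8 at -0.24. Over all tested genes, 10.8% were lower and 13.1% higher at an unadjusted p under 0.05.

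Genes next to this pathway were mostly not past the threshold. Of 77 cytosolic ribosomal protein genes, which encode the protein part of the ribosome, 0 passed in edgeR, 0 had an unadjusted p under 0.05 and DESeq2 called 0. The log2 fold change was below 0 for 62 of 77 (80.5%), against 48.9% of all tested genes, with a median of -0.04. The groups of 2 (2.6%) did not overlap on the lower side, against 14.4% of all tested genes. The smallest p were those of Rps16 (-0.38), Rpl34 (-0.50), Rps9 (-0.15) and Rpl10a (-0.12). Rpl34 was low, with means of 5.81 CPM after doxycycline and 8.26 CPM untreated. Whether pseudogenes make these counts uncertain, as for Npm1, was not tested. Density in the untreated libraries ran from 0.0908 counts per base for Rpl26 to 2.6 for Rps12, against at most 1.5 for a member. Whether a change is damped in such dense genes was not tested, so these values do not show that the ribosomal protein genes were unchanged. Of 19 genes particular to RNA polymerase III 0 passed in edgeR (3 lower and 1 higher at an unadjusted p under 0.05, 1 lower in DESeq2), with a median of -0.12, and Polr3e (-0.29), Gtf3c2 (-0.31), Polr3a (-0.23) and Polr3f (0.22) had the smallest p. For 7 subunits particular to RNA polymerase II the median was -0.06, and none passed in edgeR, in DESeq2 or at an unadjusted p under 0.05. Polr2d was at -0.16, Polr2a at 0.15, Polr2g at -0.15 and Polr2c at -0.09.

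**Figure D4:**
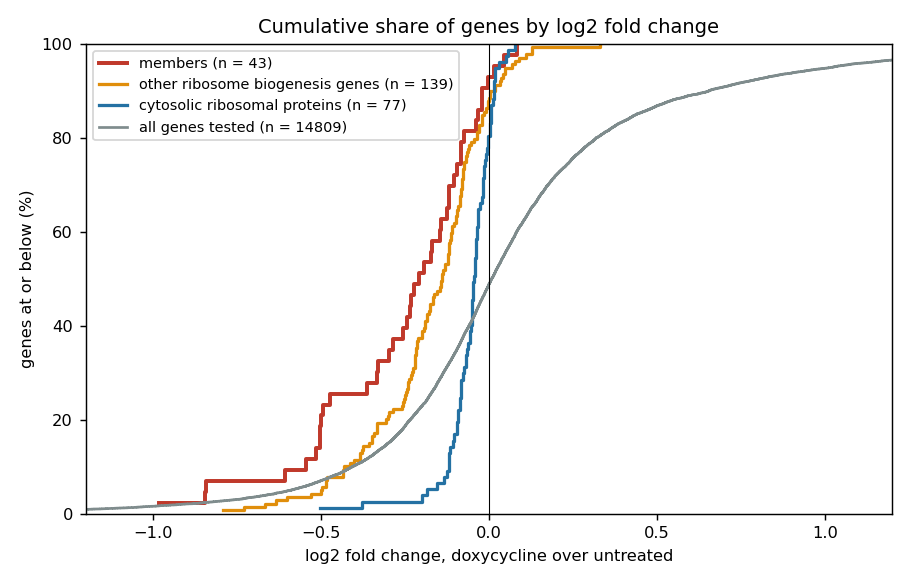
Cumulative share of genes (vertical axis, %) at or below a log2 fold change (doxycycline over untreated, horizontal axis cropped at -1.2 and 1.2) for the members, other ribosome biogenesis genes, cytosolic ribosomal proteins and all tested genes. The members' curve is the furthest left with a median of -0.21, and that of the ribosomal proteins is steep around -0.04.

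Myc itself was low and did not pass, with 15.8, 8.31 and 12.7 CPM in doxycycline replicates 1, 2 and 3, against 18.2, 15.4 and 14.3 CPM in untreated replicates 1, 2 and 3. The groups overlapped, and the log2 fold change was -0.38 (95% interval -0.98 to 0.22, edgeR adjusted p = 0.428), a wide interval that holds 0. Whether MYC has a part in the members' change was not tested. None of 13 genes of the MYC network passed in edgeR (1 lower and 1 higher at an unadjusted p under 0.05, 1 lower in DESeq2). Mxd1, a MAX partner that opposes MYC, was at -0.39, Mxd4 at 0.47 and Mlx at -0.24. Among 12 other polyamine genes 0 passed in edgeR (2 lower at an unadjusted p under 0.05, 1 lower in DESeq2), with Smox at -0.44, Dhps at -0.31, Azin1 at -0.17 and Azin2 at 0.49. Of 19 nucleotide synthesis genes Pfas, of the purine pathway, was lower (-0.41, adjusted p = 0.0208). At an unadjusted p under 0.05, 8 of the 19 were lower and 1 higher, against 10.8% and 13.1% of all tested genes. The groups of 7 (36.8%) did not overlap on the lower side, against 14.4% of all tested genes. Ctps (-0.28), Ctps2 (0.30) and Gart (-0.23) did not pass in edgeR, and DESeq2 called 2 of the 19 nucleotide synthesis genes lower.

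**Figure D5:**
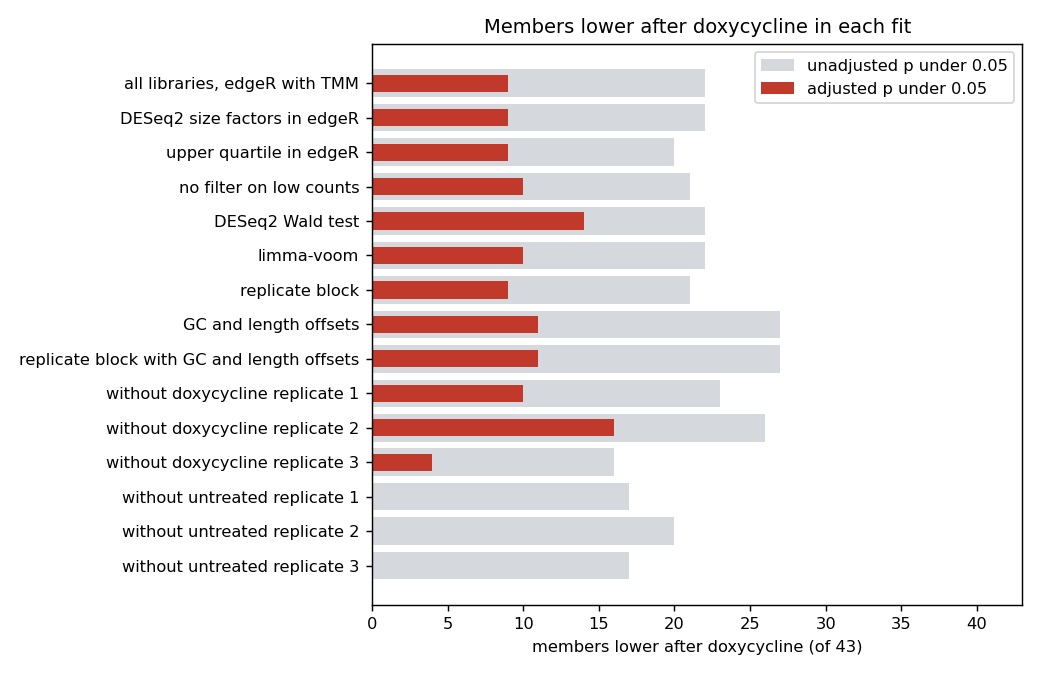
Number of members lower after doxycycline (of 43, horizontal axis from 0) at an adjusted p under 0.05 (red) and at an unadjusted p under 0.05 (grey) in each fit. Red bars are absent without any 1 untreated replicate, where grey bars reach 17 to 20.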

How the data were processed

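RNA was measured by sequencing in 6 libraries, grouped by their titles. The deposited values are raw read counts per gene, made by the authors and the submitters' processing notes name TopHat2 2.0.8, HTSeq and TopHat, with build mm9 and no roles. The sources do not state annotation, strand use or the handling of repeated reads. The 90 rows with no gene name (0.0361% to 0.0402% of counts) were left out.

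Counts were fitted over the whole table in R 4.3.3 with edgeR 4.0.16: filterByExpr, TMM scaling, robust quasi-likelihood test, two-sided, Benjamini-Hochberg adjustment, threshold 0.05. CPM use TMM-scaled totals, and levels are means ± SD. Log2 fold changes are doxycycline over untreated. The tests were tried on simulated counts. Alternatives were DESeq2 1.42.0, limma 3.58.1 (voom), other scalings, no filter, a replicate block, offsets for GC content and length, and leaving out each library. GC content and length are of the longest GENCODE M21 coding transcript.

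Every replicate pair differed beyond counting noise (chi-square over its degrees of freedom 5.17 to 29.8), so none was merged. Values in every library are given for members past the threshold and for the members with the largest and smallest log2 fold change of each role group. Up to 4 genes with the smallest p are named per other list. Members and lists were chosen with earlier results of these data known.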

Additional observations from a re-analysis of the deposited data

How the results depend on the processing

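Under scaling by DESeq2 size factors or the upper quartile, no filter, limma-voom and the replicate block, 9 or 10 members were lower, and 0 were higher under any alternative. DESeq2 called 14 members, 22 of the 139 other ribosome biogenesis genes, and gave counts of all genes lower of 789 and all genes higher of 892, against 323 and 421 with edgeR, and limma-voom called 261 genes higher. Replicate numbers were shared by title alone. Deviations of same-numbered libraries correlated at -0.01, -0.07 and 0.02, and those of differently numbered libraries at -0.14 to 0.14. No pairing by number was seen, but 3 libraries per group are too few to exclude one. With the replicate block 9 members, 2 of the 139 and 179 genes lower and 215 higher were called. With offsets for GC content and length the members' median was -0.27, with or without the block.

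Leaving out each library in turn gave 0 to 16 members lower, 0 to 29 of the 139, 12 to 866 genes lower and 11 to 1244 higher, a St18 log2 fold change of 0.58 to 1.45 (past the threshold, adjusted p = 0.0386, without doxycycline replicate 2) and 0 to 2 members higher without overlap, the 2 without doxycycline replicate 3. With 2 libraries in a group the calls rest on few degrees of freedom.

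Signs turned for members near 0, none past the threshold. With the upper quartile Nop58 was at 0.01, Nhp2 at 0.01 and Gnl3 at 0.03. With GC and length offsets Taf1b was at -0.06, Ncl at -0.21 and Npm1 at -0.19, with the block as well. With a library left out the lowest and highest values were -0.32 and 0.00 for Polr1c, -0.05 and 0.09 for Npm1, -0.01 and 0.15 for Taf1b, -0.18 and 0.01 for Rrn3, -0.08 and 0.06 for Nop58, -0.11 and 0.03 for Dkc1, -0.09 and 0.03 for Nhp2 and -0.06 and 0.06 for Gnl3. The median over all tested genes was 0.04 with the upper quartile and -0.07 with GC and length offsets, against 0.01 in the main fit. The cause of the members' shifts was not tested. The non-overlap counts were not recomputed for the tests, which leave CPM as they are. The lowest count of a member in any library was 339.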
